A study of Mus musculus with 14 samples.

Results

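The aminoacyl-tRNA synthetases, the enzymes that attach each amino acid to its transfer RNA, were followed in overloaded mouse plantaris muscle. They were taken by symbol: the 1-letter amino acid code followed by "ars", with or without a closing 1 or 2, plus Farsa, Farsb and Eprs, among probe sets that carry a single gene symbol. This gave 34 genes of 19938 on the array, 18 of them for cytosolic enzymes and 16 for mitochondrial enzymes. Aars was left out because its probe set also carries Exosc6. Where a gene had several probe sets the brightest was used, which applied to Iars alone.

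Cytosolic synthetases charge the tRNAs that ribosomes use for proteins encoded in the nucleus. A second, separately encoded set is imported into mitochondria and charges the tRNAs for the few proteins that mitochondria make themselves. Gars and Kars each encode the enzyme for both places, and Eprs encodes a fused enzyme for glutamate and proline. Several cytosolic enzymes sit together in a multi-synthetase complex held by scaffold proteins, and the genes of many cytosolic enzymes are known targets of ATF4, a transcription factor that responds to amino acid shortage and other stress.

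Plantaris muscle was collected after 1, 3, 5, 7, 10 and 14 days of overload, with day 0 as the starting point, from male C57BL/6J mice aged 5 months. Overload was brought about by synergist ablation, surgery that removes neighbouring muscles with the same task so that the plantaris carries their load. Each of the 7 days had 2 Affymetrix Mouse Gene 1.0 ST arrays, 1 hybridised with RNA pooled from the right muscles of 6 mice and 1 with RNA pooled from the left muscles of 6 mice. No sham-operated group was analysed here, and whether the pools of a day came from the same mice is not stated. The p-values therefore measure the spread between pools, which may be technical, and pooling hides the spread between animals.

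Over all 35556 probe sets, array medians lay between 242.8 and 254.9 intensity units. The median standard error of a change between 2 days was 0.0988 on the log2 scale. All values below are log2 intensities or differences of them. They compare days for 1 probe set, and levels of different genes cannot be set against each other. The summed intensity of 12 muscle fibre markers, Ckm and Myh4 among them, was 170080 and 175380 in the pools of day 1, 111330 and 122350 at day 7 and 180510 and 184140 at day 14, against 200450 and 201410 at day 0. The sum over 12 markers of macrophages and monocytes was 27936 and 30204 at day 1, 40034 and 40882 at day 3 and 18367 and 19524 at day 14, against 5613.7 and 6468.9 at day 0. Hepatocyte genes, among them Alb, stood apart in 2 pools, with summed intensities of 80738 in the right pool of day 1 and 76623 in the left pool of day 0, against 6894.5 to 40474 in the other 12 pools. In RNA from whole muscle, fewer cells of a type and less RNA per cell cannot be told apart. The part of these shifts in the synthetase changes was not tested.

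At day 1 the 2 sets moved in opposite directions. Of the 18 cytosolic synthetases 9 rose and 0 fell, and of the 16 mitochondrial synthetases 0 rose and 11 fell. Over all genes tested, 20.3% were called higher and 34.7% lower at day 1. The median change was 0.22 for the cytosolic set and -0.33 for the mitochondrial set, against -0.14 over all genes. Calls were made with limma at an adjusted p under 0.05. At an unadjusted p under 0.05 the cytosolic set had 10 higher and 0 lower at day 1, and the mitochondrial set 0 higher and 11 lower. All shares of all genes given here and below are at the adjusted threshold, so they cannot be set against unadjusted counts. Without the 2 pools that were high in hepatocyte genes, 7 cytosolic genes were higher and 10 mitochondrial genes lower.

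At days 3, 5 and 7 the cytosolic set had calls in both directions, while the mitochondrial set had calls in 1 direction. At day 3 the cytosolic set had 6 genes higher and 1 lower and the mitochondrial set 0 higher and 9 lower, with 24.2% and 23.4% of all genes called higher and lower. At day 5 the cytosolic set had 5 higher and 7 lower and the mitochondrial set 0 higher and 10 lower, with 27.0% and 38.1% of all genes. At day 7 the cytosolic counts were 5 higher and 8 lower and the mitochondrial counts 0 higher and 12 lower, with 28.5% and 37.8% of all genes. Taken of 18 genes, the cytosolic counts lay near the shares of all genes in both directions at day 5. The same held for the higher count at day 7.

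By day 10, 0 cytosolic synthetases were called higher than at day 0. There 10 cytosolic and 12 mitochondrial genes were lower, with 23.6% of all genes called higher and 27.5% lower. At day 14 it was 7 cytosolic and 5 mitochondrial genes lower and 0 of either higher, with 21.4% and 20.7% of all genes. The 6 comparisons share the same 2 pools of day 0. At an unadjusted p under 0.05, limma had 0 mitochondrial synthetases higher at any of the 6 days, and 1 cytosolic gene higher at day 10 and 0 at day 14. The shares of all genes at that threshold are not given. The median change of the cytosolic set was 0.15, 0.00, -0.09, -0.22 and -0.14 at days 3, 5, 7, 10 and 14, and that of the mitochondrial set -0.23, -0.26, -0.24, -0.28 and -0.16, against -0.07, -0.16, -0.15, -0.11 and -0.08 over all genes.

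Some of these counts rested on single pools. Cytosolic genes higher at day 5 numbered 3 with the left pool of either day left out, and those higher at day 7 numbered 2 without its own right pool or the left day 0 pool. Cytosolic genes lower numbered 5 at day 7 without its left pool or the right pool of day 0, and 4 at day 14 without its right pool. The 1 cytosolic gene lower at day 3, Iars, was lost without the right pool of either day, and 2 genes were lower there without the left pool of day 3 or without either pool of day 14. Mitochondrial genes lower numbered 5 at day 3 without its left pool and 4 without the right pool of day 0. They numbered 4 at day 5 without its right pool and 6 without either pool of day 0, 7 at day 7 without its right pool or the left day 0 pool, and 5 at day 10 without its left pool or the right pool of day 0. At day 14 they numbered 2 without its right pool or the left day 0 pool and 3 without its left pool. Over the 6 days, 63 of the 117 calls on synthetases held whichever single pool was left out, 17 of the 20 at day 1 among them.

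The scaling of the arrays also moved some calls. With the array medians of the 19938 fitted genes made equal, the median change of all genes shifted by -0.11, -0.12 and -0.13 at days 3, 5 and 7. The share of higher calls among called synthetases was 22.7% under equal medians and 27.3% under quantile normalization, against 37.5% as deposited, at day 3. The counts behind these shares were 5 higher and 17 lower, 6 higher and 16 lower, and 6 higher and 10 lower. At day 5 it was 12.5% under equal medians, against 22.7% as deposited, and the cytosolic median was -0.11 under equal medians and -0.04 under quantile normalization, against 0.00 as deposited. Other scalings also added calls. Mitochondrial genes lower numbered 14 at day 3 under each, and at day 14 they numbered 12 under quantile normalization and 10 under equal medians, against 9 and 5 as deposited. The shares of all genes called under these scalings are not given. Whether the added calls are particular to the synthetases was not tested. Calls on cytosolic genes lost under quantile normalization were those of Cars at day 1 (0.16, adjusted p = 0.0515), Farsa at day 3 (0.25, adjusted p = 0.0561) and Iars at day 3 (-0.15, adjusted p = 0.0522). The same scaling ended those of Tars at days 5 and 7 (0.10 and 0.11), Farsa (0.11) and Eprs (-0.19) at day 5, and Hars (0.13) and Nars (-0.12) at day 7, and among mitochondrial genes those of Pars2 at days 7 and 14 (-0.11 and -0.19). Equal medians ended those of Wars at day 3 (0.19, adjusted p = 0.0548) and Rars at day 7 (0.13, adjusted p = 0.153), beside Tars and Farsa.

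**Figure D1:**
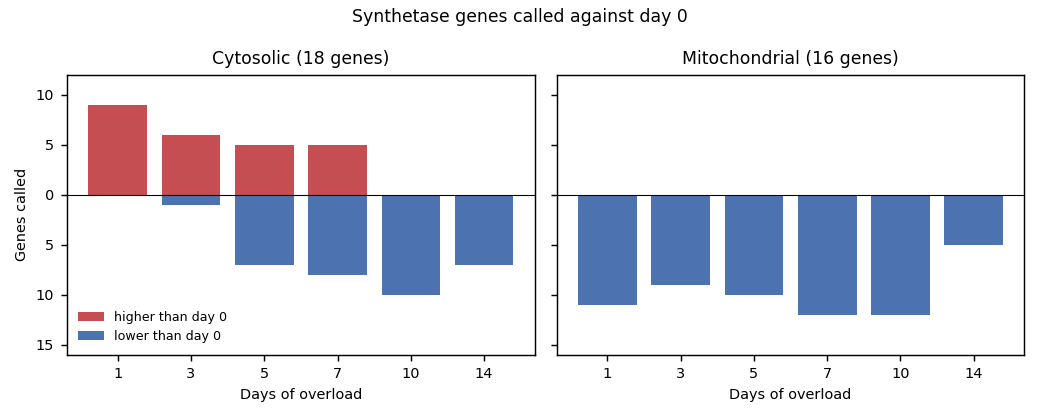
Number of synthetase genes called higher (bars above 0) or lower (bars below 0) than day 0 by limma at an adjusted p under 0.05, for 18 cytosolic and 16 mitochondrial genes at each day of overload. The cytosolic panel has 9 higher and 0 lower at day 1 and 0 higher and 10 lower at day 10, and the mitochondrial panel has 0 higher at each of the 6 days.

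Tars, the threonine enzyme, had the largest rise of the set at day 1. It read 9.92 and 9.72 in the right and left pools of day 1, against 9.20 and 8.93 at day 0, a change of 0.76 ± 0.12 (SE, adjusted p = 0.0003). Rars, for arginine, read 11.86 and 11.82 at day 1 and 11.37 and 11.22 at day 0, a change of 0.54 ± 0.09 (adjusted p = 0.0003). In neither gene did the pools of the 2 days overlap. The asparagine enzyme Nars stood at 12.21 and 12.07 at day 1, against 11.70 and 11.62 at day 0, and rose by 0.48 (adjusted p = 0.000248). Sars, for serine, stood at 11.73 and 11.76, against 11.29 and 11.25, and rose by 0.47 (adjusted p = 7.66e-05). Lars, for leucine, stood at 10.46 and 10.44, against 10.05 and 9.93, and rose by 0.46 (adjusted p = 0.000508). The other 4 rose by 0.26 to 0.39: Wars for tryptophan (0.39), Gars for glycine (0.38), Hars for histidine (0.38) and Cars for cysteine (0.26). For Hars the call was lost without the left pool of day 0 (0.29, adjusted p = 0.0506), and without both hepatocyte-rich pools the calls of Hars (0.23, adjusted p = 0.167) and Cars (0.26, adjusted p = 0.0897) were lost.

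Of the 9 genes, Sars, Tars, Nars and Lars were lower at day 3 than at day 1. Sars read 11.28 and 11.21 at day 3, against 11.73 and 11.76 at day 1, a step of -0.50 ± 0.06 (adjusted p = 0.000143), and its change from day 0 was then -0.02 (adjusted p = 0.78). Tars stepped by -0.47 (adjusted p = 0.0113), Nars by -0.32 (adjusted p = 0.00697) and Lars by -0.30 (adjusted p = 0.0127) between days 1 and 3. Iars, for isoleucine, whose change at day 1 was 0.15 (adjusted p = 0.0542), stepped by -0.38 (adjusted p = 0.000764). These 5 were the synthetases lower at day 3 than at day 1, and 6 were higher, where 13.2% of all genes were lower and 21.5% higher. Taken of 34 synthetases, both counts lay near these shares. The 5 lower became 2 without the right pool of day 1, without both hepatocyte-rich pools also 2, and 3 without the left pool of day 3. Under equal array medians this step had 2 synthetases higher and 12 lower, and the shares of all genes under that scaling are not given. Sars, Nars and Cars went on to fall below day 0, with changes of -0.35, -0.37 and -0.37 at day 10, and Lars and Wars were also lower there (-0.24 and -0.19). The Lars and Wars falls at day 10 were each lost in some fits with 1 pool left out: that of Lars without either pool of day 10 or the right pool of day 0 (-0.27 to -0.19), and that of Wars without any single pool of either day (-0.20 to -0.18).

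The list of enzymes often described as ATF4 targets holds 11 of the 18 cytosolic genes measured. At day 1, 7 of these 11 rose and 0 fell, where 20.3% of all genes rose and 34.7% fell, and the median change of the list was 0.38. The list was not tested against the other cytosolic genes. By day 10 it had 0 higher and 9 lower, where 23.6% of all genes were higher and 27.5% lower, with a median of -0.35, against -0.11 over all genes. Eprs, Iars, Mars1 and Yars are on the list and were not called at day 1. Atf4 itself read 10.90 and 11.01 at day 1, against 10.06 and 9.95 at day 0, a rise of 0.95 ± 0.07 (adjusted p = 1.23e-06), and at day 3 it differed from day 0 by -0.01 (adjusted p = 0.936). From day 5 it was lower, by -0.38 to -0.54. Ddit3 and Trib3, stress-response genes downstream of ATF4, rose by 1.58 and 1.10 at day 1. Asns, the asparagine synthetase and an ATF4 target that is no tRNA synthetase, stayed above day 0. Its changes were 2.48, 2.25, 2.20, 2.14, 1.42 and 0.85 over the 6 days. In the panel of 15 ATF4 pathway genes 12 rose and 2 fell at day 1, against the same 20.3% and 34.7% of all genes. At days 3, 5, 7, 10 and 14 it had 11, 9, 8, 8 and 8 higher and 2, 5, 5, 6 and 4 lower. Of all genes 24.2%, 27.0%, 28.5%, 23.6% and 21.4% were higher and 23.4%, 38.1%, 37.8%, 27.5% and 20.7% lower. At day 7 Psat1 read 10.36 and 10.09, against 8.01 and 7.74 at day 0, and Chac1 8.52 and 8.61, against 10.73 and 10.69.

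The promoters of the synthetases were searched for letters of the kind bound by ATF4 with C/EBP partners, since 7 of the 11 listed targets rose at day 1. The window ran from 250 bases before to 50 bases after the start of the gene in RefSeq's GRCm38.p6, and 25 of the 34 genes had an entry. The letters TGATGNAA, read on both strands, were found in 4 of 11 cytosolic genes (36.4%) and 0 of 14 mitochondrial genes, and in 4.51% of the promoters of all 27025 genes. All 4 were on the ATF4 target list, of which 7 had a promoter entry. The stricter TGATGCAA, which lies within the first motif, was found in 3 of the 11 cytosolic genes and in 1.03% of all genes. The matches are in capitals within their surroundings, given because they fall in genes whose courses differ. Gars on the plus strand at chr6:55037941-55038000 and Tars on the minus strand at chr15:11399659-11399718 have the match 30 and 15 bases before the start. Iars at chr13:49682126-49682155 and Yars at chr4:129189895-129189924, both on the plus strand, have it just after the start.
Gars: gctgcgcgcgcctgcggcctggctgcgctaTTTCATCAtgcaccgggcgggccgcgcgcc
Tars: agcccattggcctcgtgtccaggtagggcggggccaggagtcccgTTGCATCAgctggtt
Iars: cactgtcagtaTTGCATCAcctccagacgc
Yars: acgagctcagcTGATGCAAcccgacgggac
Of these 4 genes Tars and Gars rose at day 1 (0.76 and 0.38), and Iars and Yars changed by 0.15 and 0.12 without passing the test. Sars, which rose, had no match in its window. Cars, Hars, Lars, Nars, Rars and Wars, which also rose at day 1, had no promoter entry and were not searched. Whether a match goes with a rise was not tested. The E-box CACGTG was found in 4 of the 25 genes (16%), the same count as TGATGNAA, against 8.09% of all genes. By set it was in 3 of 11 cytosolic genes (27.3%) and 1 of 14 mitochondrial genes (7.14%). The ETS letters CCGGAAGT were found in 3 (12%), against 4.31%, and the NRF1 motif in 0, against 1.07%. The ETS letters were in 2 of 11 cytosolic genes (18.2%) and 1 of 14 mitochondrial genes (7.14%). A match is a description of the letters and not of binding.

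A second group of cytosolic genes stayed high through day 7. Gars read 11.37 and 11.32 at day 3, against 10.71 and 10.64 at day 0, and its changes were 0.38, 0.67, 0.60 and 0.56 at days 1, 3, 5 and 7 (adjusted p = 1.58e-05 at day 3). The pools of these days lay above both day 0 pools, and at day 10 the change was 0.17 (adjusted p = 0.0801). Vars, for valine, was not called at day 1 (0.09, adjusted p = 0.362). It read 10.48 and 10.45 at day 3, against 9.82 and 9.84 at day 0, a change of 0.63 ± 0.08 (adjusted p = 5.75e-05), followed by 0.51 and 0.40 at days 5 and 7. Its step between days 1 and 3 was 0.54 (adjusted p = 0.000485), the largest rise of a synthetase between those days. Gars also rose between days 1 and 3, by 0.29 (adjusted p = 0.0118). Hars followed with 0.38, 0.52, 0.39 and 0.33 at days 1 to 7, and its day 7 call was lost without the left day 0 pool (0.24, adjusted p = 0.0812) or the right day 7 pool (0.27, adjusted p = 0.0728). Rars changed by 0.39 at day 3 (adjusted p = 0.0032), 0.20 at day 5 (adjusted p = 0.0612) and 0.26 at day 7 (adjusted p = 0.0228). Wars was still higher at day 3 (0.30, adjusted p = 0.00322) but did not stay high. Its change was 0.07 at day 5 (adjusted p = 0.387) and -0.15 at day 7 (adjusted p = 0.0712).

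Tars was called again at days 5 (0.31, adjusted p = 0.044) and 7 (0.33, adjusted p = 0.0312), but less firmly than at day 1. With the left day 0 pool left out these were 0.17 (adjusted p = 0.3) and 0.20 (adjusted p = 0.233). Without the left pool of day 5 the first was 0.23 (adjusted p = 0.219), and without the right pool of day 7 the second was 0.22 (adjusted p = 0.218). Leaving out either pool of day 3 or of day 10 put the day 5 call just past the threshold (adjusted p = 0.0539 and 0.0518). Under equal array medians the Tars changes at days 5 and 7 were 0.19 and 0.21 and were not called. The Rars call at day 7 was lost without the right day 7 pool (0.18, adjusted p = 0.164) or the left day 0 pool (0.18, adjusted p = 0.154).

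Several of these genes fell between days 7 and 10. Tars fell by 0.47 (adjusted p = 0.0238), Gars by 0.40 (adjusted p = 0.00514), Iars by 0.38 (adjusted p = 0.00263), Vars by 0.34 (adjusted p = 0.0172) and Rars by 0.34 (adjusted p = 0.0234). These were the 5 synthetases lower at day 10 than at day 7, and 0 were higher, where 9.52% of all genes were lower and 6.95% higher. A single gene was lower with the right day 7 pool or the left day 10 pool left out, and 2 with the right day 10 pool left out. Over the same interval the summed intensity of macrophage markers was 25956 and 26963 at day 10, against 35475 and 36468 at day 7, and that of fibre markers 160500 and 164470, against 111330 and 122350. Their part in these steps was not tested. Between days 5 and 7, 0 synthetases were called, where 0.667% of all genes were higher and 0.487% lower. Between days 3 and 5, Cars fell by 0.39 (adjusted p = 0.00688) and Nars by 0.29 (adjusted p = 0.0322), and 0 rose, with 4.74% and 6.41% of all genes lower and higher. Taken of 34 synthetases, the 2 falls lay near the share of all genes. Both of these steps were lost without the right pool of day 3, and 1 was lost without the left pool of day 3 or either pool of day 5 or of day 10. Between days 10 and 14 Iars rose by 0.26 (adjusted p = 0.0405) and Iars2, its mitochondrial counterpart, by 0.36 (adjusted p = 0.022), with 2.11% of all genes higher and 2.56% lower. Neither was called without any single pool of day 10 or of day 14, and 1 of them was lost without any single pool of days 0, 1, 3 or 7.

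Another group of cytosolic genes was called lower and at no day higher: Mars1, Farsb, Iars, Eprs and Yars. Mars1, the methionine enzyme that also supplies the charged initiator tRNA, read 9.93 and 9.83 at day 10, against 10.50 and 10.44 at day 0, a fall of 0.59 (adjusted p = 9.9e-05). Iars read 10.93 and 10.96 at day 10, against 11.58 and 11.56 at day 0, a change of -0.62 ± 0.06 (adjusted p = 9.12e-06), the largest fall among the cytosolic synthetases against day 0. Its other probe set read 10.93 and 10.74 at day 10, against 11.57 and 11.42. Eprs was lower at days 5, 7 and 10 by -0.25, -0.27 and -0.35, and Yars, for tyrosine, at days 7, 10 and 14 by -0.26, -0.36 and -0.43. For Eprs the day 5 and day 7 calls, and for Yars the day 7 call, were lost without the right pool of day 0 (-0.19, -0.21 and -0.23) or the left pool of the day itself (-0.18, -0.20 and -0.19). The Yars call at day 5 (-0.21, adjusted p = 0.0487) was lost without any single pool except the left pool of day 5 and the 2 pools of day 7 (adjusted p up to 0.337).

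Kars, for lysine, and Qars, for glutamine, were not called at any day. Kars changed by -0.14 to 0.12 and Qars by -0.15 to 0.14 over the 6 days, with standard errors of 0.07. Qars did rise between days 1 and 3, by 0.22 (adjusted p = 0.0297). A moderated F test across the 7 days nevertheless called 18 of 18 cytosolic and 11 of 16 mitochondrial synthetases, against 71.3% of all genes. The cytosolic genes had their highest day mean at day 1 in 10 of 18 cases and their lowest at day 10 in 11. The mitochondrial genes had their highest mean at day 0 in 12 of 16 cases and their lowest at day 1 in 8. Such counts are not given for all genes, whose median change was negative at each of the 6 days. Whether they are particular to the synthetases was not tested.

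**Figure D2:**
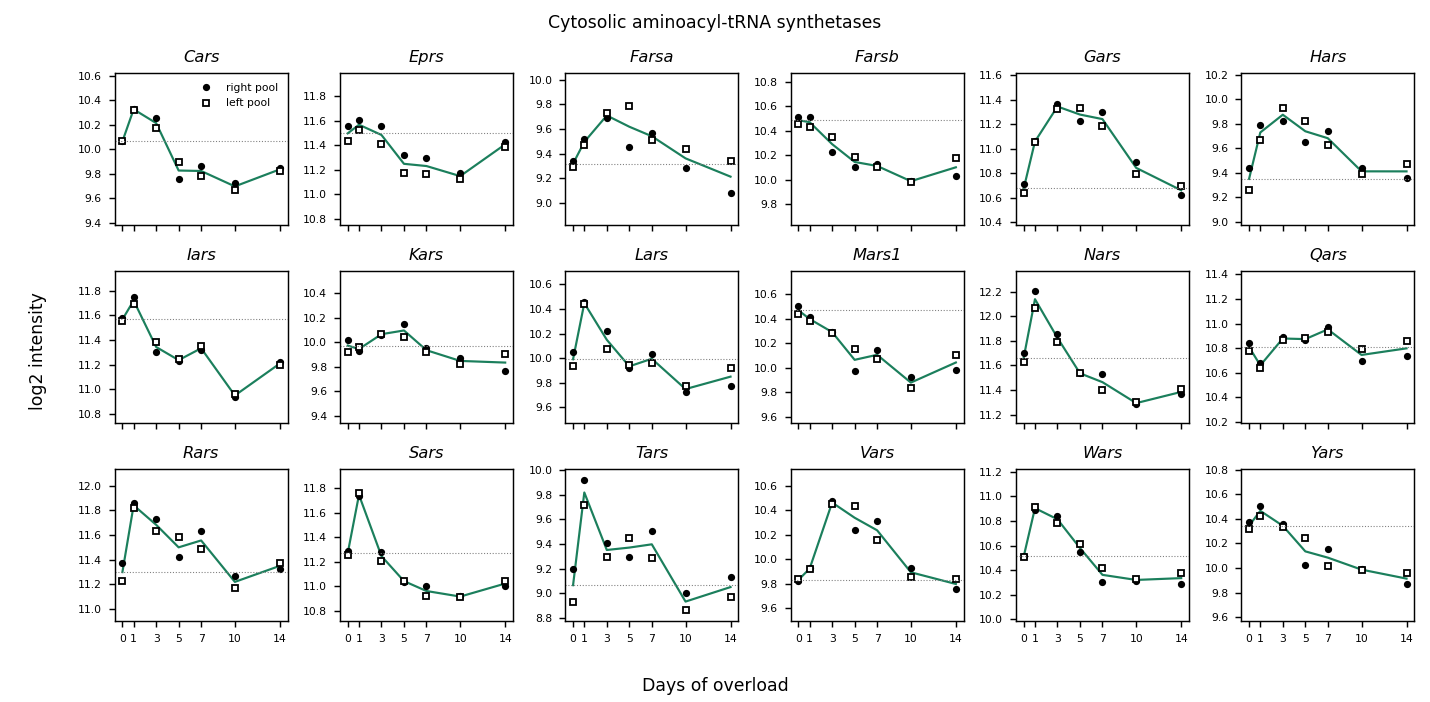
Log2 intensity of the 18 cytosolic synthetases against days of overload, with a filled circle for the right pool, an open square for the left pool, a line through the day means and a dotted line at the mean of day 0. All panels span the same height. Tars, Sars, Nars and Lars stand highest at day 1, Gars and Vars stay above day 0 until day 7, and Mars1, Farsb and Iars decline to day 10.

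The enzymes form 2 unrelated families, class I and class II, with different folds around the active site. At day 1, class I had 4 of 18 genes higher and 5 lower, and class II had 5 of 15 higher and 6 lower, where 20.3% of all genes were higher and 34.7% lower. At day 10, class I had 0 higher and 12 lower, and class II 0 higher and 9 lower, where 23.6% of all genes were higher and 27.5% lower. The classes were not tested against each other. Of the 7 measured enzymes of the multi-synthetase complex, 2 (Lars and Rars) were higher at day 1 and 0 lower, and at day 10 it was 0 higher and 4 lower. Iars, Mars1, Eprs, Kars and Qars, which also belong to the complex, were not called at day 1.

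The phenylalanine enzyme is built from 2 kinds of subunit, and their genes gave different calls. Farsa, which encodes the alpha subunit, read 9.69 and 9.73 at day 3, against 9.34 and 9.29 at day 0, a change of 0.39 ± 0.11 (adjusted p = 0.0145). Farsb, which encodes the beta subunit, read 10.23 and 10.35 at day 3, against 10.51 and 10.46 at day 0, a change of -0.19 ± 0.08 (adjusted p = 0.0542). At day 10 Farsa had changed by 0.04 (adjusted p = 0.763) and Farsb by -0.50 (adjusted p = 0.000231). At day 14 the change was -0.11 for Farsa (adjusted p = 0.476) and -0.38 for Farsb (adjusted p = 0.0019). The difference between the subunits was not tested. The Farsa call at day 3 was lost without the left pool of day 3 or of day 0 (0.37 in each case, adjusted p = 0.0744 and 0.0676). Its call at day 5 (0.30, adjusted p = 0.0383) was lost without the left pool of day 5 (0.13) or either pool of day 0 (0.33 and 0.28), and under both other scalings of the arrays (0.11 and 0.18).

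The scaffolds of the complex also parted. Aimp2 read 10.24 and 10.47 at day 7, against 11.40 and 11.25 at day 0, and fell at every day, by 0.43, 0.83, 0.93, 0.97, 0.92 and 0.40 on the log2 scale. Aimp1 fell at every day too, by 0.31 to 0.48. Eef1e1, which encodes the remaining scaffold, rose by 0.40, 0.51 and 0.27 at days 1, 3 and 5 and was lower at day 14 (-0.25, adjusted p = 0.0388). The pools of Eef1e1 stood at 10.66 and 10.73 at day 3, against 10.27 and 10.10 at day 0.

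Tarsl2, which encodes a second cytosolic threonine enzyme closely related to Tars, moved against it. It read 9.42 and 9.38 at day 1 and 8.38 and 8.46 at day 3, against 10.56 and 10.43 at day 0. The change was -1.10 at day 1 and -2.08 ± 0.11 at day 3 (adjusted p = 7.2e-08), which is 4.21-fold lower, and -1.08 was left at day 14. All 12 overload pools lay below both day 0 pools. At day 1 the 3 threonine enzymes thus read 0.76 for Tars, -1.10 for Tarsl2 and -0.46 for the mitochondrial Tars2 as changes from day 0. Aarsd1, which encodes a protein that removes wrongly attached amino acids from alanine tRNA, was lower at every day, by -0.84 at day 1. Of the 6 synthetase-like and editing genes, 1 rose and 4 fell at day 1, where 20.3% of all genes rose and 34.7% fell.

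**Figure D3:**
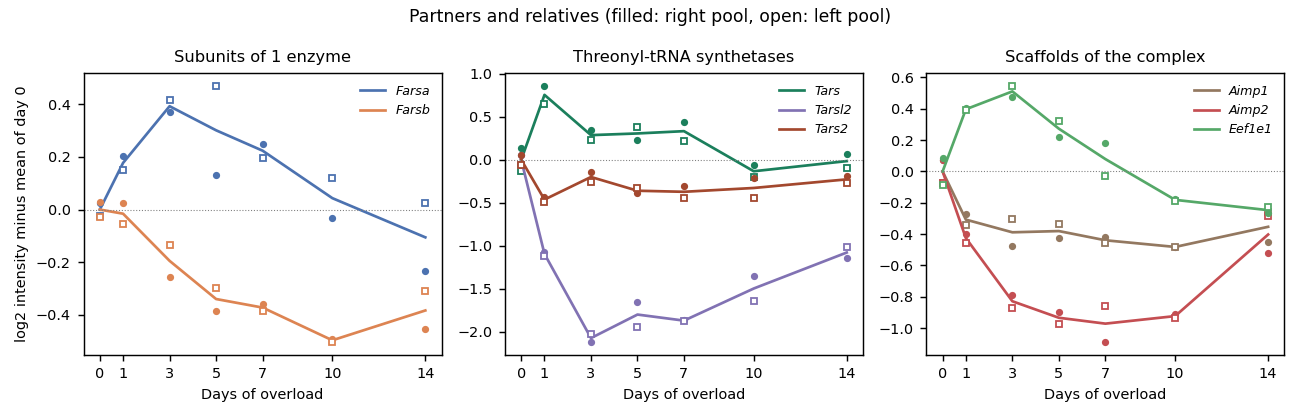
Log2 intensity minus the day 0 mean against days of overload, for the phenylalanine enzyme's subunits (left), the threonine enzymes (middle) and the scaffolds of the complex (right), with filled circles for right pools, open squares for left pools and lines through the day means. The vertical axes differ between panels. Tarsl2 lies at -2.08 at day 3, when Tars stands at 0.29, and Aimp2 lies at -0.97 at day 7.

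Among the mitochondrial synthetases the day 1 falls were led by Sars2, for serine. It read 8.50 and 8.63 at day 1, against 9.16 and 9.17 at day 0, a change of -0.60 ± 0.09 (adjusted p = 0.000246). Vars2, for valine, read 8.70 and 8.52, against 9.15 and 9.22, and fell by 0.57 (adjusted p = 7.78e-05). Lars2, for leucine, read 8.60 and 8.40, against 9.14 and 8.98, and fell by 0.56 (adjusted p = 0.000417). The pools of the 2 days did not overlap in Sars2, Vars2 or Lars2. Aars2, for alanine, read 8.47 and 8.28, against 9.05 and 8.81, and fell by 0.55 (adjusted p = 0.000736). Fars2, for phenylalanine, read 9.20 and 9.10, against 9.58 and 9.72, and fell by 0.50 (adjusted p = 0.000559). The other 6 fell by 0.25 to 0.46: Tars2 (-0.46), Hars2 (-0.42), Mars2 (-0.34), Pars2 (-0.32), Cars2 (-0.28) and Iars2 (-0.25). The calls of Cars2 and Iars2 were lost without the left pool of day 1 (-0.24 and -0.18, adjusted p = 0.0747 and 0.11) or the right pool of day 0 (-0.20 and -0.23, adjusted p = 0.0981 and 0.0662). Without both hepatocyte-rich pools the Mars2 call was lost (-0.28, adjusted p = 0.0759).

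Some of these genes were higher again by day 3. Between days 1 and 3, Sars2 rose by 0.37 (adjusted p = 0.0107), Vars2 by 0.36 (adjusted p = 0.00417) and Tars2 by 0.26 (adjusted p = 0.0477). With Vars, Gars and Qars these were the 6 synthetases higher at day 3 than at day 1, where 21.5% of all genes were higher. Taken of 34 synthetases, the 6 lay near that share. The count of 6 was 3 without either pool of day 1 and 2 without the right pool of day 3. Fars2 stayed lower at all 6 days, with changes of -0.50, -0.52, -0.32, -0.40, -0.41 and -0.29, of which the day 5 and day 14 calls were lost without the right pool of the day itself (-0.26 and -0.20) or the left pool of day 0 (-0.25 and -0.22). Lars2 was -0.09 from day 0 at day 14 (adjusted p = 0.478) and Iars2 0.00 from it (adjusted p = 0.99), after -0.31 and -0.36 at day 10. The Lars2 call at day 10 was lost without the left pool of day 10 (-0.24) or the right pool of day 0 (-0.23).

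Yars2, for tyrosine, had its lowest level at day 10. It read 9.21 and 9.26 at day 10, against 9.81 and 9.70 at day 0. Its changes over the 6 days were -0.17, -0.24, -0.30, -0.43, -0.52 and -0.38, the first of which was not called (adjusted p = 0.0991) and the fifth of which had an adjusted p of 0.000308. The day 3 and day 5 calls were lost without the right pool of the day itself (-0.17 and -0.21) or the right pool of day 0 (-0.19 and -0.24). Ears2, Rars2 and Wars2, for glutamate, arginine and tryptophan, were not called at any day, with changes of -0.17 to 0.03, -0.28 to 0.02 and -0.13 to 0.01. Nars2, for asparagine, was called lower at day 3 alone (-0.30, adjusted p = 0.0417), and this was lost without either pool of day 3 (adjusted p up to 0.197), without the right pool of day 0 (-0.17, adjusted p = 0.294) or without either pool of day 10 or of day 14 (adjusted p = 0.0556 and 0.0508).

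**Figure D4:**
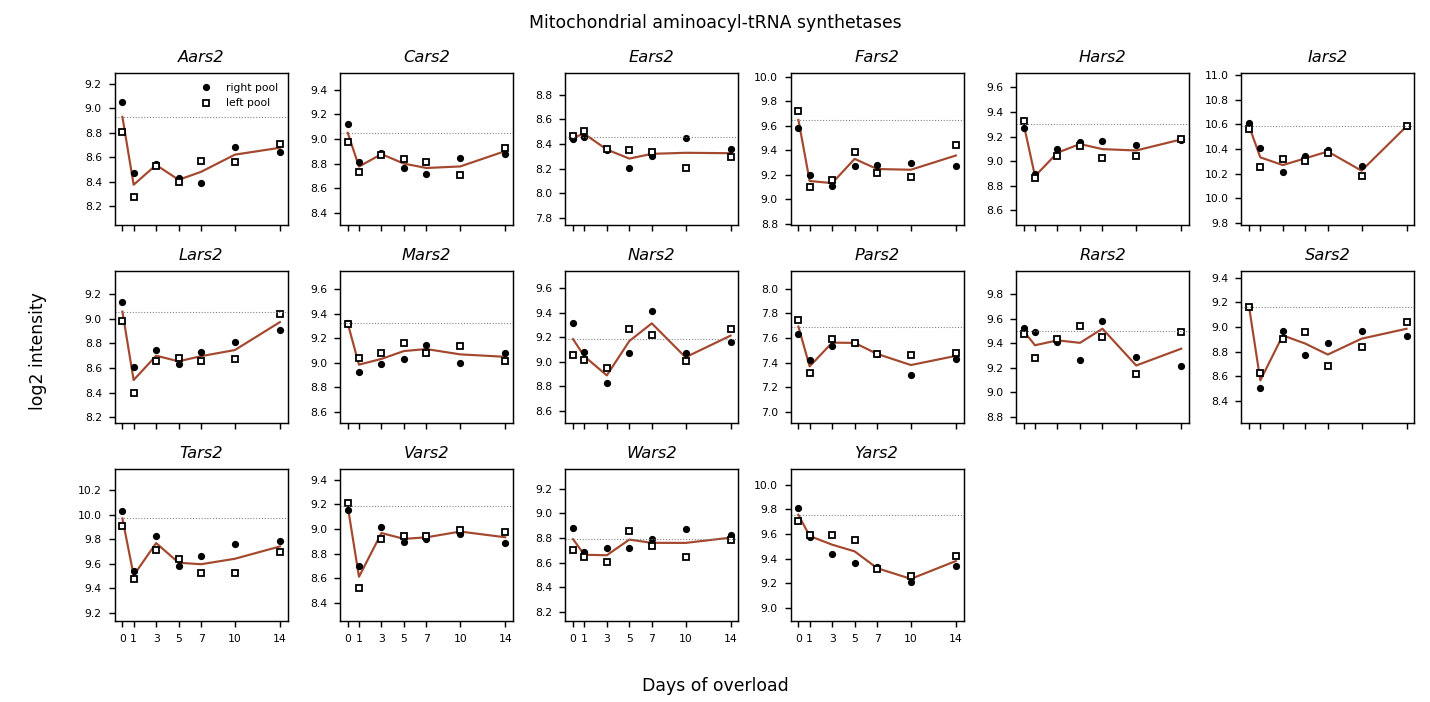
Log2 intensity of the 16 mitochondrial synthetases against days of overload, with a filled circle for the right pool, an open square for the left pool, a line through the day means and a dotted line at the mean of day 0. All panels span the same height. Sars2, Vars2 and Lars2 are at their lowest at day 1 and Yars2 at day 10, while Ears2, Rars2 and Wars2 have no called change, Rars2 lying lowest at day 10 (-0.28).

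Fibre markers were lower too, most at day 7. Of 12 fibre markers 5 fell at day 1, with a median change of -0.21, against 12 at day 7, where the median was -0.84. At day 14, 4 fell, and the median was -0.17. Over all genes 34.7%, 37.8% and 20.7% were called lower at days 1, 7 and 14, with medians of -0.14, -0.15 and -0.08. The mitochondrial synthetases had medians of -0.33, -0.24 and -0.16 at days 1, 7 and 14. Macrophage and monocyte markers had 10 of 12 genes higher at day 1 and 12 of 12 at day 3. Of all genes 20.3% and 24.2% were higher at these days. Neutrophil markers had 5 of 10 higher and 0 lower at day 1, with summed intensities of 18888 and 22112, against 3955.4 and 8908.4 at day 0. The part of these cell types in the mitochondrial and cytosolic changes was not tested.

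For 12 amino acids the genes measured held both a cytosolic and a mitochondrial enzyme. In all 12 pairs the cytosolic change was above the mitochondrial change at days 1 and 3. It was above in 9, 8, 6 and 4 of the 12 pairs at days 5, 7, 10 and 14. The median of the cytosolic change minus the mitochondrial change was 0.64, 0.44, 0.08, 0.13, -0.01 and -0.06 over the 6 days. At day 1 the difference was largest for threonine, at 1.22, followed by serine at 1.07 and leucine at 1.01. At day 3 it was largest for valine, at 0.85, followed by histidine at 0.75. At day 14 it was most negative for isoleucine, at -0.36, where Iars had changed by -0.36 and Iars2 by 0.00. These differences themselves were not tested.

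**Figure D5:**
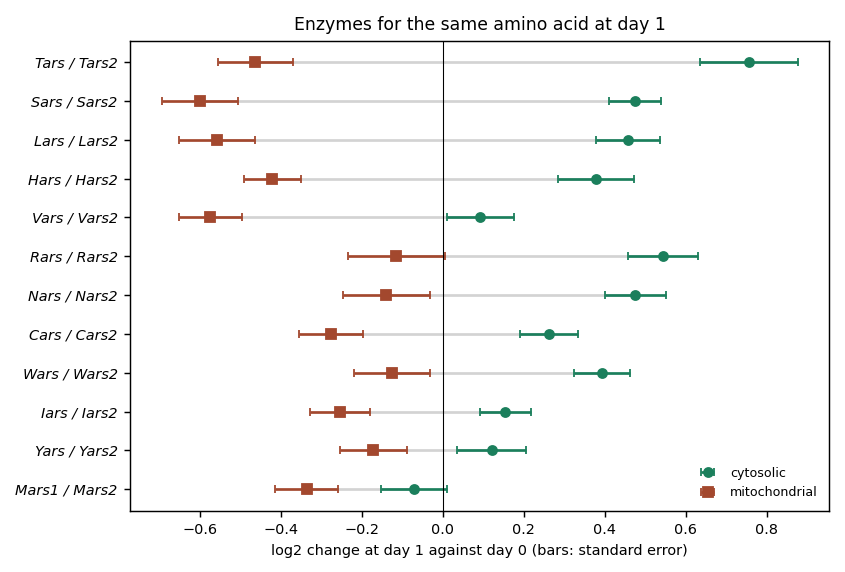
Log2 change at day 1 against day 0 for the cytosolic (circles) and mitochondrial (squares) enzyme of each of 12 amino acids, ordered by their difference, with bars for the standard error of each change. The cytosolic enzyme lies to the right of the mitochondrial one in all 12 pairs, from 1.22 apart for Tars and Tars2 to 0.27 apart for Mars1 and Mars2.

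Glutamine has no mitochondrial enzyme of its own in mice: its tRNA is first charged with glutamate by Ears2 and then converted by the amidotransferase encoded by Qrsl1, Gatb and Gatc. While Ears2 was not called, all 3 amidotransferase genes were lower at every day. Qrsl1 read 8.68 and 8.69 at day 1, against 9.77 and 9.65 at day 0, a change of -1.03 ± 0.08 (adjusted p = 1.19e-06). Gatc changed by -0.93 and Gatb by -0.71 at day 1, and at day 14 the 3 changes were -0.60, -0.58 and -0.54. At day 1, 9 of 10 mitochondrial translation factors fell and 0 rose, where 34.7% of all genes fell and 20.3% rose. Their median change was -0.57, against -0.14 over all genes. Gfm1, a mitochondrial elongation factor, changed by -0.71 at day 1 and -1.07 at day 7, and Gfm2, which helps to recycle mitochondrial ribosomes, by -0.78 and -1.04. At an unadjusted p under 0.05 limma also had 0 of these 10 higher at day 1, and the share of all genes at that threshold is not given.

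In the cytosol, the forms of the elongation factor that takes up charged tRNA moved in opposite directions. Eef1a1, the general form, rose by 0.70 at day 1 and 1.31 at day 7. Eef1a2, the form of adult muscle and nerve, changed by -0.82 at day 1 and -1.49 at day 7, and read 11.56 and 11.81 at day 7, against 13.18 and 13.18 at day 0. Eef2k, the kinase that inhibits elongation, changed by -1.31 at day 1. Of the 8 elongation genes measured 2 rose and 2 fell at day 1, where 20.3% of all genes rose and 34.7% fell.

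Genes that make and export tRNA were not tested against all genes. Of 20 tRNA maturation and export genes 6 rose and 7 fell at day 1, where 20.3% of all genes rose and 34.7% fell. Xpot, the exporter of tRNA from the nucleus, rose by 1.09 at day 1 (adjusted p = 1.1e-06), then 0.50, 0.41 and 0.50 at days 3, 5 and 7, with 0.03 at day 10 (adjusted p = 0.745). Pop1, a subunit of the enzymes that trim the ends of tRNA and other RNAs, rose by 0.74 at day 1, while Rpp25l and Rpp40, for proteins linked to the same enzymes, changed by -0.95 and -0.92. Of 19 genes of RNA polymerase III, which transcribes tRNA genes, 6 rose and 6 fell at day 1, against the same shares of all genes. Polr3g and Polr3gl, which encode alternative forms of the same subunit, changed by 0.63 and -0.82. Maf1, the repressor of this polymerase, was lower at every day, by -0.59 at day 1 and -0.89 at day 7.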

How the data were processed

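RNA of 14 pools of plantaris muscle, 2 for each of 7 days, was hybridised to Affymetrix Mouse Gene 1.0 ST arrays. The values deposited by the authors are linear intensities, 1 per probe set, and Partek is the tool in the submitters' processing notes. How they were summarised and normalized is not given in the sources used here. The labels differ on the amount of RNA labelled. Of 35556 probe sets 21789 carried 1 symbol in the platform annotation, 1621 several, and 12146 were not listed. The brightest probe set per gene left 19938 genes. All 34 synthetases matched RefSeq by gene number.

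Log2 intensities were fitted in limma 3.58.1 (R 4.3.3) with 1 mean per day over 14 arrays, leaving 7 residual degrees of freedom plus 3.88 from the prior. P-values were two-sided and adjusted by the Benjamini-Hochberg method over the 19938 genes in each of 6 comparisons with day 0 and 5 of consecutive days, and the F test likewise. The pipeline was tested on simulated data. All synthetases are named. Of each other list, up to 4 called genes a day with the largest change, plus a fixed panel, could be named. The members, lists and tests were chosen with earlier results of these data known. The number of arrays limits the precision. Promoters were read with Python 3.11.15 from RefSeq's table for GRCm38.p6, and figures drawn with matplotlib 3.10.9. The alternatives were other scalings of the arrays, a filter on dim genes, averaged probe sets, a trended prior, side as a block, fits of 2 days, a fold threshold and left-out pools.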

Additional observations from a re-analysis of the deposited data

How the results depend on the processing

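Single changes of synthetases were followed under the alternatives other than the trended prior, the fits of 2 days and the fold threshold. For the 117 called changes against day 0, 2135 of 2336 values under these alternatives were still called and 0 had the opposite sign. A left-out pool of a day not compared leaves the log2 change as it was, so those values could not change sign. The same holds for averaged probe sets, except for Iars. Of 1738 alternative values of changes not called, 83 were called. The least stable calls were those of Vars2 at day 10, Yars at day 5 and Tars at day 5, called in 6, 7 and 11 of 20 alternatives. Counts below run over days 1, 3, 5, 7, 10 and 14 where 6 are given. The shares of all genes called under the alternatives are not given. A 1.5-fold threshold left 1, 2, 1, 0, 0 and 0 cytosolic genes higher, 0, 0, 0, 0, 2 and 0 lower, and 1, 0, 0, 0, 0 and 0 mitochondrial genes lower. It left 0 synthetases changed between consecutive days. Quantile normalization gave 9, 6, 4, 3, 1 and 0 cytosolic genes higher, 1, 2, 7, 9, 12 and 10 lower and 12, 14, 14, 13, 15 and 12 mitochondrial genes lower, and 7 synthetases lower at day 5 than day 3. Equal medians gave 10, 5, 3, 3, 0 and 0 cytosolic genes higher, 0, 3, 8, 9, 11 and 10 lower and 11, 14, 13, 13, 14 and 10 mitochondrial genes lower. At day 3 against day 1 they gave 2 synthetases higher and 12 lower. With the arrays of the 2 compared days alone, cytosolic genes numbered 3 higher at day 5 and 3 at day 7, and 0, 3, 3 and 4 lower at days 3, 5, 7 and 14. Mitochondrial genes then numbered 5, 7 and 1 lower at days 3, 10 and 14. In the same fits 3 synthetases were higher and 3 lower at day 3 than day 1, 0 lower at day 5 than day 3 and 1 higher at day 14 than day 10. A trended prior gave 1 cytosolic gene higher at day 10 and 2 lower at day 3, and 4 synthetases lower at day 5 than day 3. Without the dimmest of 3 classes of genes it was 2 lower at day 3, with 4 synthetases lower at day 5 than day 3 and 9 lower at day 10 than day 7. With the 2 hepatocyte-rich pools left out together, 3 and 2 cytosolic genes were higher at days 5 and 7 and 2 mitochondrial genes lower at day 14, and 2 synthetases were lower at day 3 than day 1 and 1 higher at day 14 than day 10. There the left day 1 pool is set against the right day 0 pool. Averaging the probe sets of Iars changed no count against day 0.

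With each pool left out in turn, cytosolic genes higher numbered 8 to 9, 5 to 7, 3 to 6 and 2 to 5 at days 1, 3, 5 and 7. Cytosolic genes lower numbered 0 to 2, 5 to 7, 5 to 8, 8 to 10 and 4 to 7 at days 3, 5, 7, 10 and 14. Mitochondrial genes lower numbered 9 to 11, 4 to 9, 4 to 10, 7 to 12, 5 to 12 and 2 to 5 at the 6 days. Synthetases at day 3 against day 1 numbered 2 to 6 higher and 2 to 5 lower, those lower at day 5 than day 3 0 to 2, those lower at day 10 than day 7 1 to 5, and those higher at day 14 than day 10 0 to 2. The F test over the days called 15 to 18 cytosolic and 10 to 12 mitochondrial genes. A left-out pool leaves its day with 1 array, whose spread is taken from the other days.

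The labels pair the pools by side of the body and by nothing else. The right-pool deviations correlated between days from -0.58 to 0.44 over 21 pairs of days, so side was not taken as pairing. With side as a replicate block, 1 synthetase was higher at day 14 than day 10, and of the 204 changes against day 0 4 lost and 2 gained a call. The cause of these differences was not tested.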
